A study of Mus musculus with 24 samples.

Results

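The 8 genes described here encode the enzymes that write, copy and remove methyl groups on DNA and the cofactors of these enzymes. They are the methyltransferases Dnmt1, Dnmt3a and Dnmt3b, the catalytically inactive cofactor Dnmt3l, the dioxygenases Tet1, Tet2 and Tet3, and Uhrf1, which guides Dnmt1 to newly replicated DNA. How open their chromatin is was read in mouse embryonic stem cells by ATAC-seq, an assay whose transposase cuts and tags accessible DNA. Every consensus interval whose nearest annotated transcription start site belonged to 1 of the 8 genes was taken as a member, promoter and distal alike. This gave 46 intervals of 145143 in the series, and 8 genes of the 38851 named in it.

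The series compared 4 embryonic stem cell lines after doxycycline, a drug that switches on inducible transgenes. These were a wild type control line, a wild type line that carries an inducible transgene for the long noncoding RNA Firre, a Firre knockout control line, and a Firre knockout line rescued with the same kind of transgene. All 4 lines, the controls included, received doxycycline for 0, 30, 60, 90, 120 or 150 min, and the medium of all held LIF, the MEK inhibitor PD0325901 and the GSK3 inhibitor CHIR99021, on gelatin. Each line had 1 library per time, so that times stood in as replicates of a line; 23 of 24 libraries were used, the 1 not analysed here being the 60 min library of the wild type Firre line. The labels give 1 line per genotype and no separate cultures within a line and time. A difference between lines therefore cannot be told apart from a difference between clones, and p-values measure only the spread between these libraries.

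DNA methylation in mammals lies mainly on CG dinucleotides. Dnmt3a and Dnmt3b place it on unmethylated DNA, helped by Dnmt3l, and Dnmt1 with Uhrf1 copies it to the new strand at replication. Tet enzymes oxidise methylcytosine, which opens the way to its loss. Embryonic stem cells kept with LIF and the MEK and GSK3 inhibitors are known for low methylation, and Tet1 and Tet2 are the main Tet enzymes in them.

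The start sites of the 8 genes differ widely in how many CG dinucleotides they hold, and the sequences below are shown for that range and for the starts that the results turn on. Each is the 250 bases before a RefSeq start (assembly GRCm38.p6), printed 5′ to 3′ on the gene's own strand, with CG dinucleotides in capitals. They lie at chr9:20952980-20953229 (minus strand, 7 CG dinucleotides) and chr9:20952624-20952873 (minus, 26) for starts 2 and 3 of Dnmt1 (numbered in the direction of transcription), which share the main Dnmt1 interval, chr17:56304063-56304312 (plus, 30) for the downstream start of Uhrf1, chr12:3806730-3806979 (plus, 38) and chr12:3891494-3891743 (plus, 15) for the first and the internal start of Dnmt3a, chr10:78049592-78049841 (plus, 4) for Dnmt3l and chr3:133544391-133544640 (minus, 51) for Tet2.
Dnmt1 start 2: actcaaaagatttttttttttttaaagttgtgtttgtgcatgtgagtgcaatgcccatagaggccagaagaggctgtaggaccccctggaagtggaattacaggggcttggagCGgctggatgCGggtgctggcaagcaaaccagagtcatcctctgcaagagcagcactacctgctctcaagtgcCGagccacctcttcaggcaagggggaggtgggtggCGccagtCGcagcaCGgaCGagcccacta
Dnmt1 start 3: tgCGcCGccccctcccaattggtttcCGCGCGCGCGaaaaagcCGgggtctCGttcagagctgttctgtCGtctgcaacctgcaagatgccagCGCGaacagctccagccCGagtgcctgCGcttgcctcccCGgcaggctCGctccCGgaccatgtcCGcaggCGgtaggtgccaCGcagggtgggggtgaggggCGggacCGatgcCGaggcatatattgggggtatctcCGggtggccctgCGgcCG
Uhrf1: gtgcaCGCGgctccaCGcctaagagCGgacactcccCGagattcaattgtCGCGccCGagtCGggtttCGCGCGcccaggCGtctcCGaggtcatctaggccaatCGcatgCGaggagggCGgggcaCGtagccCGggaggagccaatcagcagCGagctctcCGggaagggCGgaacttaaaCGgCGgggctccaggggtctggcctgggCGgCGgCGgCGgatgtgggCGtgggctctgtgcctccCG
Dnmt3a first start: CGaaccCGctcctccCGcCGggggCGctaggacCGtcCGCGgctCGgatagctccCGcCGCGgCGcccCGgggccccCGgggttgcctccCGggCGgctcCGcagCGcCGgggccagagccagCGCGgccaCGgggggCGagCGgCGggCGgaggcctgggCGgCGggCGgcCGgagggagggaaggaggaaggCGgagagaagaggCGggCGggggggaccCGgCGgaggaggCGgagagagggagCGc
Dnmt3a internal start: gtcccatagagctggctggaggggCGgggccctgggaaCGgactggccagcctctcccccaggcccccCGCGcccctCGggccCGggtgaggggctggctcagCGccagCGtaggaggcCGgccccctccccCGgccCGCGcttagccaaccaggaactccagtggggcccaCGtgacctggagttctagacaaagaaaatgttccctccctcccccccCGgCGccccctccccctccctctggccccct
Dnmt3l: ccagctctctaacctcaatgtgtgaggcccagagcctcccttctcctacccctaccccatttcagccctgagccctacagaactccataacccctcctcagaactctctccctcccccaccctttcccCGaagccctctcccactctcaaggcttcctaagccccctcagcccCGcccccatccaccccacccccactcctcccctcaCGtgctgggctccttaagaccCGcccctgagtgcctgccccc
Tet2: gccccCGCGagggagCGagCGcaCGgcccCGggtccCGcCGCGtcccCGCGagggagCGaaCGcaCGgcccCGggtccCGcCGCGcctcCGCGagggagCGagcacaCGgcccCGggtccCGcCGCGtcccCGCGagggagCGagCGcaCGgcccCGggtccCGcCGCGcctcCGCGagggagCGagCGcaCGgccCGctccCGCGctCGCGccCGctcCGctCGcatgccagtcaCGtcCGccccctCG

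RefSeq lists 15 starts for the 8 genes, and in windows of 300 bases around them (250 before and 50 after) the CG count ran from 2 to 57. The median over all 32851 RefSeq start windows was 7. Tet2 had the most CG dinucleotides, 57, followed by the first pair of Dnmt3a starts with 46 and 47. The upstream start of Dnmt1 had 2, while starts 2 and 3 of Dnmt1 had 12 and 33. The 2 starts of Uhrf1, which share its start interval, also had 12 and 33. The 3 starts of Dnmt3l had 6, 4 and 3. The first Dnmt3l start was the 1 start of the 15 that fell in no interval. A ratio of observed to expected CG above 0.6, a usual mark of CpG islands, was found in 7 of 15 member windows and in 35.4% of all windows. GGGCGG, the core of the Sp1 motif, searched on both strands, was present in 12 of 15 member windows and in 35.7% of all windows. CCAAT was present in 5 of 15 (37.4% of all windows), CACGTG in 2 (7.2%) and the NRF1 motif in 2 (4.6%), both of them Dnmt1 starts. These matches describe letters in the windows and do not show binding.

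The 46 intervals were spread unevenly over the genes: 11 were named for Uhrf1, 10 for Tet2, 9 for Dnmt3a, 7 for Dnmt1, 3 each for Dnmt3b and Tet1, 2 for Dnmt3l and 1 for Tet3. By the deposited annotation 31 lay in introns, 7 at promoters, 4 in exons and 4 between genes. With a window of 1000 bp around an annotated start or a promoter annotation, 8 were promoter intervals and 38 were not. Naming by nearest start had 2 effects on these genes. First, 6 of the 11 Uhrf1 intervals lie in the annotation of Kdm4b, a neighbouring histone demethylase gene, and 1 of these, at 21463 bp from the Uhrf1 start, is the promoter of Kdm4b itself. Second, the RefSeq starts of Dnmt3b and Tet2 and the internal start of Dnmt3a fall in 3 intervals named for other transcripts (Dnmt3bos, Gm42567 and Dnmt3aos), which are not among the 46. These 3 were added, from their positions alone, after the files had been seen, and they are kept apart in every count.

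**Figure D1:**
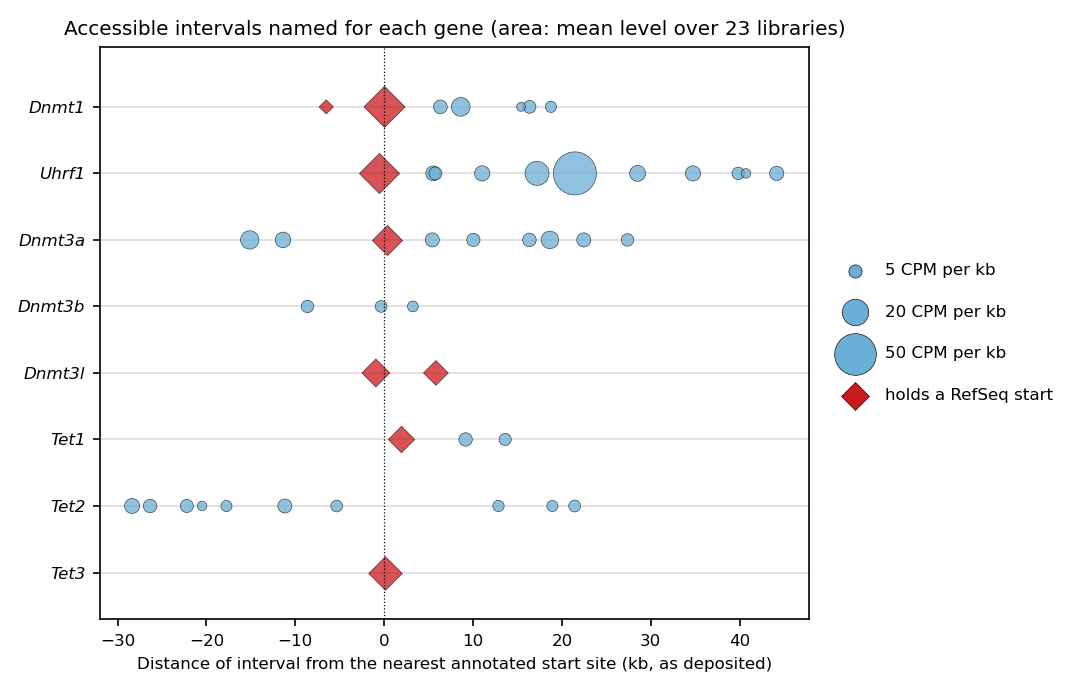
Position of the 46 intervals relative to the nearest annotated start of each gene (x axis, kb; 1 row per gene), with symbol area proportional to the mean accessibility over 23 libraries in CPM (counts scaled to library size) per kb of interval. Red diamonds mark the 8 intervals that hold a RefSeq start, and the largest circle, at 53.4 CPM per kb, is the Kdm4b promoter named for Uhrf1.

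The libraries held 5725518 to 14977148 counts in intervals (median 7664147). Levels are given as CPM on scaled library sizes, and where the median library has a count of 0 the level may still be as high as 0.391 CPM (3 counts; counting error only). The Firre locus followed the labels outside its exonic interval. Its 19 other intervals summed to 80.7 to 98.7 CPM in wild type controls and to 2.04 to 4.85 CPM in knockout controls. The exonic interval read 1.36 to 2.72 CPM in wild type controls and 13.0 to 36.7 CPM with the transgene, and in the knockout pair 4.18 to 9.60 CPM without it and 12.7 to 22.5 CPM with it. All 8 stem cell marker genes had promoter intervals, whereas the fibroblast genes Col1a2, Col3a1 and Prrx1 and the endoderm gene Sox17 had none. The fibroblast genes Col1a1, Thy1 and Twist1 had them too, at means of 15.45, 11.11 and 22.74 CPM. So did the endoderm genes Gata4, Gata6 and Foxa2 and the neural genes Pax6, Neurod1 and Olig2. Means of these endoderm and neural genes ran from 19.25 CPM (Gata4) to 38.36 CPM (Olig2), against 22.29 CPM for Pou5f1, the lowest of the stem cell genes. Having a promoter interval was therefore not particular to the stem cell markers. Summed promoter levels of the stem cell markers were 373 to 399 CPM in the wild type control and 405 to 496 CPM in the knockout control, and those of the 3 fibroblast genes with an interval were 44.4 to 54.7 and 47.9 to 55.3 CPM. The share of counts that fell in promoter intervals differed between lines: it was 35.2% to 36.8% in the wild type control, 37.2% to 40.6% in the knockout control, 35.9% to 40.9% in the wild type Firre line and 36.6% to 39.5% in the knockout Firre line.

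Per kb of interval, the starts of the maintenance pair were the most accessible of the 8 genes. The main Dnmt1 start interval averaged 24.4 ± 3.13 CPM per kb (SD, n = 23) and the Uhrf1 start interval 23.3 ± 2.32, which is within their spread. They stood at percentiles 90.5 and 89.3 of all promoter intervals. Tet2 followed at 19.3 ± 2.26, then Tet3 at 16.2 ± 2.14 and Dnmt3b at 15.2 ± 1.15. The first Dnmt3a start had 13.3 ± 1.09, Dnmt3l 11.3 ± 1.34 and Tet1 10.1 ± 0.534 CPM per kb. Each neighbour in this order, from Dnmt1 to Tet1, differed from the next by less than the sum of their SDs. The median over 23099 promoter intervals was 8.28 CPM per kb, and only the upstream Dnmt1 start fell below it among the 11 intervals over RefSeq starts, at 2.90 ± 0.733. The 35 member intervals with neither a promoter label nor a RefSeq start had a median of 5.21 CPM per kb and ranged from 2.61 to 16.7, against a median of 4.46 for all other intervals. A wide interval spreads its counts over more bases, and widths ran from 189 to 4096 bp, the widest being the Tet1 start.

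CG count and accessibility per kb did not follow exactly the same order at these starts. Dnmt3l, with 4 CG dinucleotides in its window, read 11.3 CPM per kb and Tet1, with 17, read 10.1. Tet2, with 57, read 19.3, and the main Dnmt1 interval, whose starts have 12 and 33, read 24.4. No test was run on this.

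**Figure D2:**
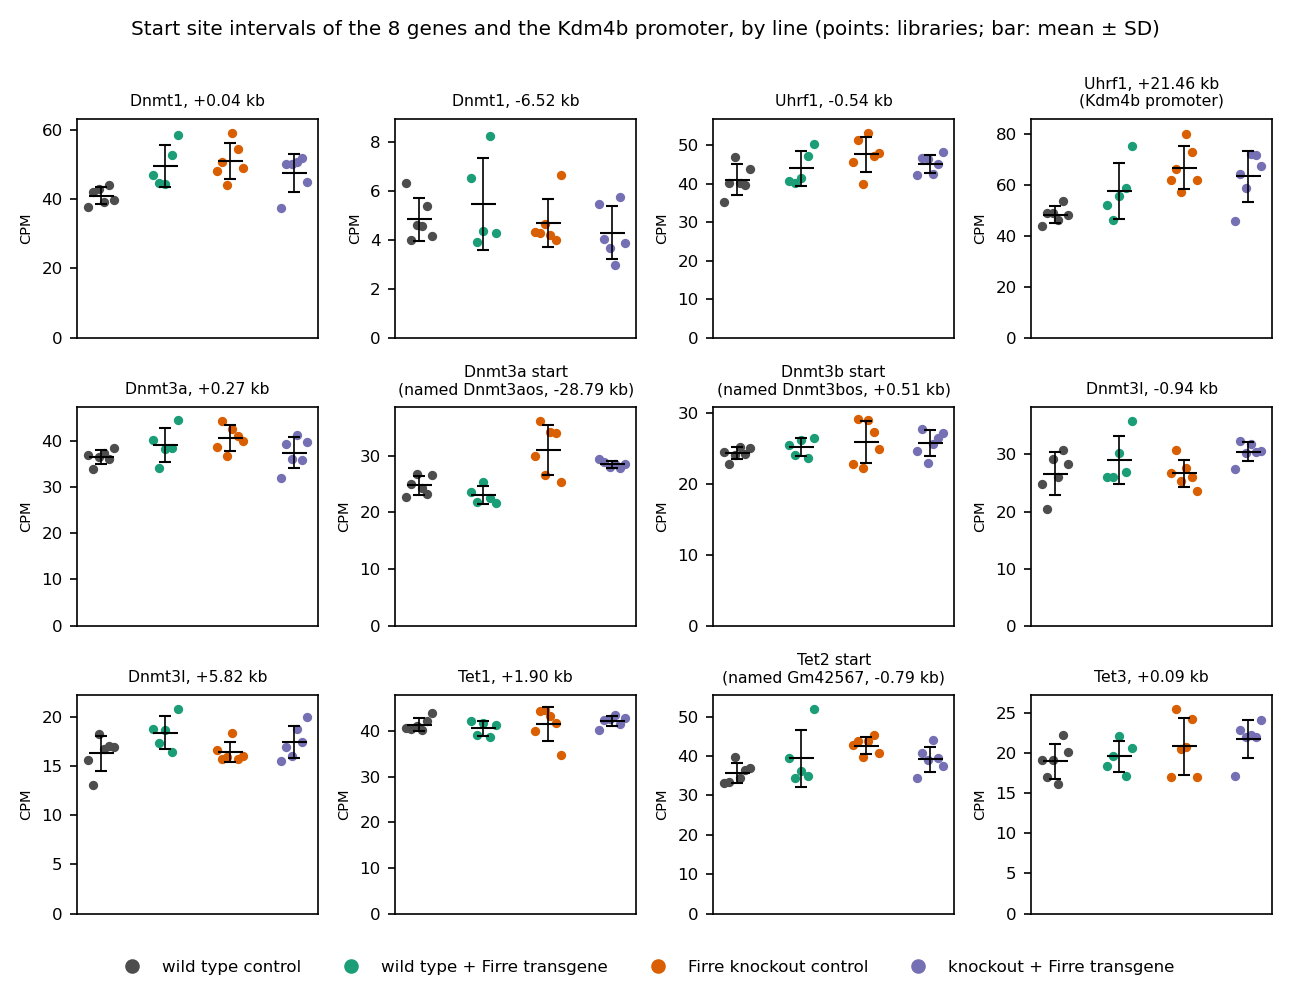
Accessibility (y axis, CPM, from 0) of the 11 intervals over RefSeq starts and of the Kdm4b promoter, in each library of the 4 lines (points), with the mean and SD (bars). Panels give the distance to the nearest annotated start; in the Dnmt1 panel all 6 knockout control libraries lie above the 6 wild type control libraries, the closest pair both at 44.1 CPM after rounding.

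Knockout and wild type control lines differed at 4 of the 43 member intervals that passed the filter on low counts, with 3 higher and 1 lower in the knockout (5.5% and 2.47% of all tested intervals). The 3 intervals that failed the filter, all in Dnmt1, had means under 1 CPM and were not tested. Across the series 7.97% of 129515 tested intervals were called in this comparison, so 4 of 43 (9.3%) is close to the background. The calls are at an adjusted p of 0.05 or less in edgeR's quasi-likelihood test with Benjamini-Hochberg adjustment over all tested intervals. At an unadjusted p under 0.05 there were 13 member intervals, against 22.2% of all intervals. The median log2 difference was -0.04 for the 43 intervals and -0.02 for all intervals. Among promoter intervals the median was 0.14 for the 7 tested members and 0.09 for all 22021, of which 16.4% were called higher and 1.39% lower. The promoter share of the libraries moved with this comparison, since its ranges in the 2 control lines do not overlap, and so did the summed stem cell marker promoters given above. In bulk libraries, fewer cells with an open site and less opening per cell cannot be told apart. With that share as a covariate 0 of 43 members were called, where 373 of all 129515 intervals were. Since the share itself differed between these lines, the covariate can take up part of any line difference. With the covariate the median of the 7 promoters became -0.04. With offsets fitted against the level of each interval (loess) this median became -0.06. It stayed above 0 with RLE factors (0.15) and on total counts without a scaling factor (0.05). The direction of the promoter median thus flipped with the covariate and with loess offsets only. For all intervals the split was 7128 higher and 3196 lower, and 3855 higher and 7224 lower on total counts without a scaling factor.

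The main Dnmt1 start, the promoter of the maintenance methyltransferase (chr9:20951593-20953529, mm10), was higher in the knockout control. Its level was lowest 37.7, median 41.0 and highest 44.1 CPM in the 6 wild type control libraries and lowest 44.1, median 49.9 and highest 59.2 CPM in the 6 knockout control libraries. The ranges did not overlap, though they met to within rounding, and the knockout was higher at 6 of 6 times. The log2 difference was 0.31 ± 0.08 (SE; edgeR adjusted p = 0.0095). It fell to 0.04 with either loess offsets or the promoter share covariate, to 0.24 with the knockout controls of 30 and 90 min left out (edgeR adjusted p = 0.165) and to 0.25 without the knockout control library of 90 min alone (edgeR adjusted p = 0.0758), and was then not called. The wild type Firre line gave 47.0, 44.7, 44.5, 52.7 and 58.7 CPM at 0, 30, 90, 120 and 150 min, all 5 above every wild type control library. Its difference of 0.26 ± 0.09 was not called (edgeR adjusted p = 0.418). The knockout Firre line, at 37.5, 50.2 and 51.8 CPM (lowest, median, highest), overlapped both control lines.

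Inside Dnmt1, an interval in intron 1 at 6325 bp from the start (chr9:20946129-20946431) went the other way. It read lowest 1.43, median 2.11 and highest 2.55 CPM in the wild type control and lowest 0.89, median 1.16 and highest 1.46 CPM in the knockout control. The knockout was lower at 6 of 6 times, while the ranges just overlapped. The log2 difference was -0.78 ± 0.25 (edgeR adjusted p = 0.0403), on a mean of 13.0 counts per library. This call was lost when any of 10 single control libraries was left out (log2 differences from -0.83 to -0.67), and with loess offsets, the covariate or with the knockout controls of 30 and 90 min left out. In the knockout Firre line the same interval read 1.58, 1.88, 1.90, 2.07, 2.04 and 1.50 CPM at 0 to 150 min, above the knockout control at 6 of 6 times with no overlap. That difference was 0.62 ± 0.26 and was not called (edgeR adjusted p = 0.278). The strongest distal Dnmt1 interval, in intron 1 at 8619 bp, had 7.75 ± 0.958 (wild type) and 9.32 ± 0.967 CPM (knockout; SD, n = 6 each), a log2 difference of 0.28 ± 0.12 that was not called (edgeR adjusted p = 0.117). The upstream Dnmt1 start had means of 4.83 and 4.67 CPM in the same lines (-0.04 ± 0.15). A further Dnmt1 interval annotated as a promoter, at 15404 bp inside the gene, averaged 0.566 CPM and was not tested.

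Uhrf1, the partner of Dnmt1, had its start interval (chr17:56302919-56304822) at lowest 35.2, median 40.2 and highest 47.0 CPM in the wild type control and lowest 39.9, median 47.6 and highest 53.2 CPM in the knockout control. The ranges overlapped and the difference of 0.21 ± 0.08 was not called (edgeR adjusted p = 0.104). It was called when the wild type control of 60 min, the wild type Firre library of 150 min or the knockout control of 60 or 150 min was left out (0.21 to 0.28, lowest edgeR adjusted p = 0.0292). Its strongest distal interval of its own, in intron 15 at 17200 bp, had 9.54 ± 1.36 and 10.9 ± 1.97 CPM (SD, n = 6 each) in these lines, also not called. The member with the clearest difference was the Kdm4b promoter named for Uhrf1 (chr17:56325318-56326422), which is the promoter of another gene. It read lowest 43.8, median 48.4 and highest 53.7 CPM in the wild type control and lowest 57.3, median 64.2 and highest 80.1 CPM in the knockout control, with no overlap. The log2 difference was 0.46 ± 0.09 (edgeR adjusted p = 8.79e-05), higher at 6 of 6 times. It kept its call without any single library, and fell to 0.15 with loess offsets (edgeR adjusted p = 0.0552) and 0.13 with the covariate (edgeR adjusted p = 0.527). None of the intervals at or within Uhrf1 itself was called with all libraries.

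Of the de novo genes, Dnmt3a gave 1 call among 9 intervals, and Dnmt3b and Dnmt3l gave 0 among 3 and 2. The Dnmt3a call was an intron 1 interval at 18649 bp (chr12:3825356-3826262), which read lowest 5.50, median 6.87 and highest 8.74 CPM in the wild type control and lowest 7.59, median 8.77 and highest 11.2 CPM in the knockout control. The ranges overlapped, with the knockout higher at 5 of 6 times, and the log2 difference was 0.37 ± 0.11 (edgeR adjusted p = 0.0251). It was not called without any of 5 single control libraries, with the knockout controls of 30 and 90 min left out, on total counts, with the covariate or by DESeq2 (adjusted p = 0.0683). At the first Dnmt3a starts the level was lowest 34.0, median 36.8 and highest 38.4 CPM in the wild type control and lowest 36.7, median 40.5 and highest 44.4 CPM in the knockout control, a difference of 0.14 ± 0.08 that was not called (edgeR adjusted p = 0.297). The strongest distal interval of Dnmt3a, 15124 bp upstream, had 9.63 ± 1.09 and 11.1 ± 0.977 CPM (SD, n = 6 each), also not called.

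The internal Dnmt3a start, in the interval named Dnmt3aos, read lowest 22.8, median 24.6 and highest 26.8 CPM in the wild type control and lowest 25.3, median 32.0 and highest 36.1 CPM in the knockout control. The difference was 0.31 ± 0.09 (edgeR adjusted p = 0.0104), and the ranges overlapped. It was lost without the wild type control library of 90 min or the knockout control library of 30 or 120 min. It was also lost with the knockout controls of 30 and 90 min left out, on total counts, with loess offsets and with the covariate. The interval lies over both Dnmt3a and its antisense transcript, and ATAC-seq cannot assign it to either.

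At Dnmt3b and Dnmt3l no difference passed the test. The Dnmt3b start, in the interval named Dnmt3bos, had 24.3 ± 0.870 (wild type) and 25.9 ± 3.01 CPM (knockout; SD, n = 6 each), a log2 difference of 0.08 ± 0.08 (edgeR adjusted p = 0.615). The promoter interval named for Dnmt3b, 350 bp before an annotated start inside the gene, had 4.17 ± 0.899 and 3.40 ± 0.815 CPM, a difference of -0.27 ± 0.16 (edgeR adjusted p = 0.343). The distal Dnmt3b interval lies in intron 2, 8633 bp before an annotated start inside the gene and downstream of the RefSeq start. It had 4.87 ± 1.20 and 4.25 ± 1.22 CPM, and was not called. Dnmt3l, the cofactor of the de novo enzymes, had 26.6 ± 3.74 and 26.7 ± 2.40 CPM at its main start, a difference of -0.01 ± 0.09, and 16.3 ± 1.78 and 16.4 ± 1.03 CPM at its downstream start, a difference of 0.00 ± 0.09.

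The Tet genes gave 0 calls, among 3 intervals of Tet1, 10 of Tet2 and 1 of Tet3. The Tet1 start (chr10:62883570-62887665) had the smallest SD per kb over all 23 libraries among the starts, 0.534 CPM per kb. It read lowest 40.4, median 40.9 and highest 44.1 CPM in the wild type control and lowest 34.9, median 42.6 and highest 44.8 CPM in the knockout control, a difference of -0.01 ± 0.08. With loess offsets this became -0.26 and was called (edgeR adjusted p = 0.00104). The Tet3 start read lowest 16.1, median 19.2 and highest 22.3 CPM in the wild type control and lowest 17.0, median 20.7 and highest 25.6 CPM in the knockout control, a difference of 0.12 ± 0.09 (edgeR adjusted p = 0.469), in an interval that also holds the start of the oppositely directed transcript B230319C09Rik.

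The Tet2 start, in the interval named Gm42567, read lowest 33.2, median 35.4 and highest 39.8 CPM in the wild type control and lowest 39.6, median 43.2 and highest 45.3 CPM in the knockout control, with a narrow overlap. Its difference of 0.25 ± 0.09 was just inside the threshold (edgeR adjusted p = 0.0471). It was lost when any of 17 single libraries was left out, and became -0.04 with the covariate and 0.01 with loess offsets. The 10 intervals named for Tet2, all distal to it, had differences below 0 in 9 cases. Of all 43 tested members 24 had differences below 0, and the median over all intervals outside promoters was -0.05. Whether this lean is particular to Tet2 was not tested. At 20489 bp before the nearest start, in a Tet2 intron, the level was lowest 1.79, median 1.99 and highest 3.15 CPM in the wild type control and lowest 1.00, median 1.61 and highest 1.68 CPM in the knockout control. These ranges did not overlap, and the interval is named for that after its values were seen. Its difference of -0.66 ± 0.24 was not called (edgeR adjusted p = 0.0659). The strongest distal interval named for Tet2 lies between genes, 18928 bp from the nearest annotated start and farther from the RefSeq start. It had 10.3 ± 2.07 and 9.41 ± 1.78 CPM and was not called. In all, ranges of the control lines did not overlap at 3 of the 43 tested members (the Dnmt1 start, the Kdm4b promoter and this Tet2 interval), against 3.09% of all tested intervals.

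**Figure D3:**
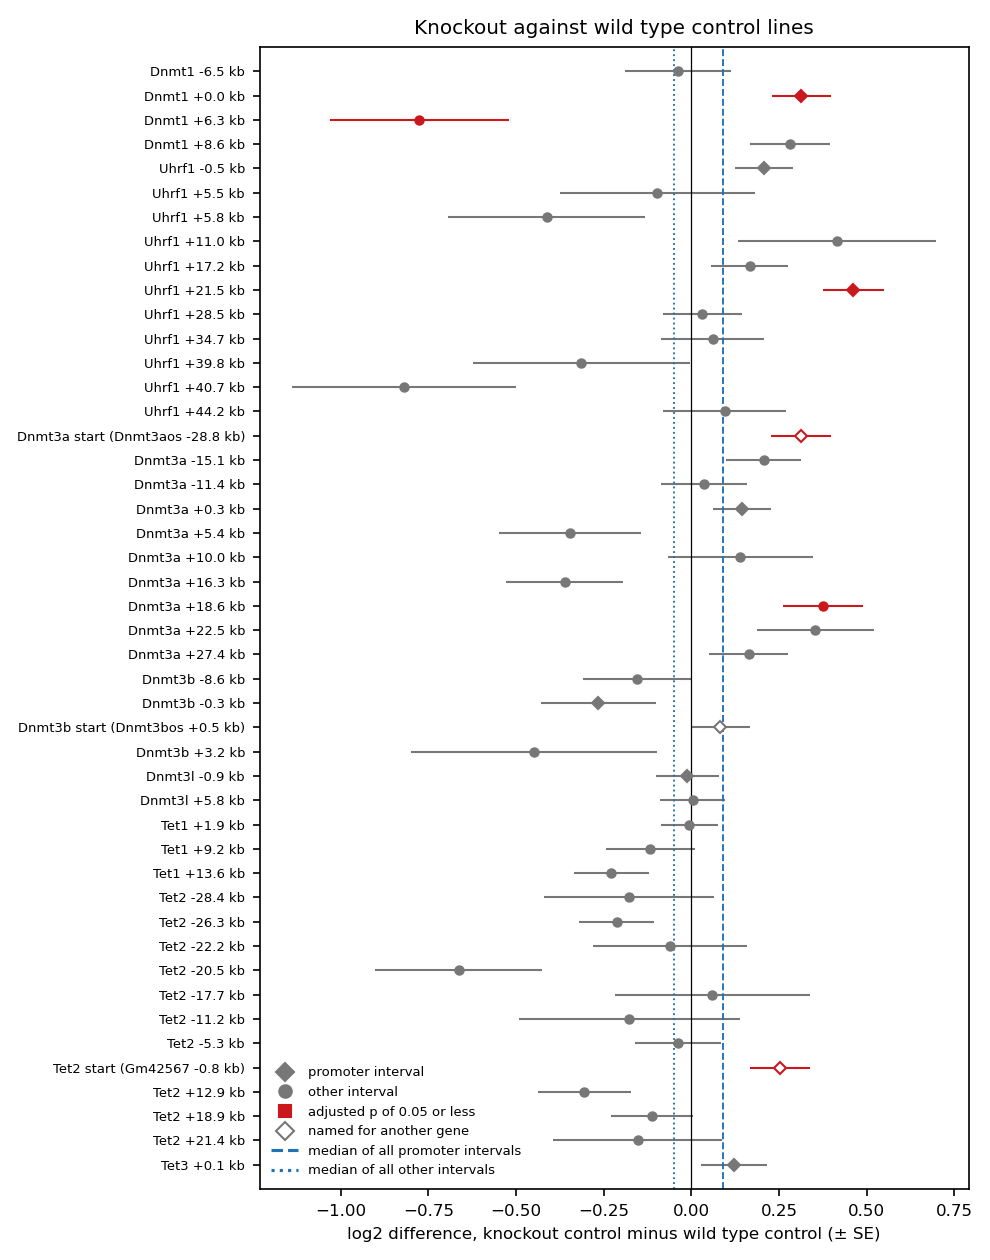
Log2 difference in accessibility between the knockout and the wild type control line (x axis, with SE) for the 43 tested member intervals and the 3 intervals named for other transcripts (open symbols), by gene and distance from the nearest start. Red marks an edgeR adjusted p of 0.05 or less; the dashed and dotted lines are the medians of all promoter intervals (0.09) and all other intervals (-0.05).

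The lines with the Firre transgene were first compared with their controls over all times, the uninduced 0 min libraries included, so these differences are between lines and do not isolate induction. They gave no call among the members in either background. In the wild type pair, Firre line against control, 0 of 43 were called, where 0.0818% of all intervals were, and 3 of 43 had an unadjusted p under 0.05 (7.55% of all). In the knockout pair 0 of 43 were called, where 0.913% of all intervals were, and 5 of 43 had an unadjusted p under 0.05 (12.3% of all). Median log2 differences of the members were 0.06 and 0.00. The second smallest p in the wild type pair, after the Dnmt1 start, belonged to an interval named for Tet2. This interval lies between genes, 21430 bp from the nearest annotated start and farther from the RefSeq start. It read 3.45, 2.35, 2.32, 3.59 and 2.46 CPM with the transgene against lowest 1.51, median 1.78 and highest 2.49 CPM in the control, a difference of 0.59 ± 0.22 (edgeR adjusted p = 0.497).

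In the knockout pair the smallest p belonged to a Dnmt3a intron 1 interval at 16340 bp (chr12:3823131-3823869). It read lowest 2.43, median 3.31 and highest 4.06 CPM in the knockout control and lowest 3.57, median 4.68 and highest 5.86 CPM in the knockout Firre line. The Firre line was higher at 6 of 6 times, 0 min included, and the ranges overlapped. The difference was 0.52 ± 0.16 (edgeR adjusted p = 0.0933), and without the knockout Firre library of 120 min it became 0.66 and was called (edgeR adjusted p = 0.0411). At the main Dnmt3l start the knockout control read lowest 23.7, median 26.4 and highest 30.7 CPM and the knockout Firre line lowest 27.5, median 30.5 and highest 32.3 CPM. This too was higher at 6 of 6 times, with a difference of 0.21 ± 0.09 (edgeR adjusted p = 0.272) that was called with the promoter share covariate (0.29, edgeR adjusted p = 0.0274). Ranges did not overlap at 1 of 43 members in each pair, the Dnmt1 start in the wild type pair and the Dnmt1 interval at 6325 bp in the knockout pair, against 0.842% and 0.95% of all tested intervals.

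A difference in the transgene contrast between the backgrounds was not detected at any member: 0 of 43 were called for the difference, where 0.266% of all intervals were, and 5 of 43 had an unadjusted p under 0.05 (10.6% of all). The smallest p was again the Dnmt3a interval at 16340 bp, at 0.79 ± 0.23 (edgeR adjusted p = 0.117), where the wild type Firre line was below its control and the knockout Firre line above its own. Next came the main Dnmt1 start at -0.36 ± 0.12 (edgeR adjusted p = 0.207).

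Changes with time after doxycycline were not detected at any of the 8 genes. For the mean change over 30 to 150 min in Firre lines relative to control lines, 0 of 43 members were called where 0% of all intervals were, and 1 of 43 had an unadjusted p under 0.05 (3.77% of all). The smallest p were a Tet2 intron interval at 22205 bp before the nearest start (0.82 ± 0.39) and the Uhrf1 interval over exon 9 at 11026 bp (-1.41 ± 0.73; edgeR adjusted p = 1 for both). For any time-dependent difference 0 of 43 were called (0.000772% of all intervals), with unadjusted p under 0.05 at 2 of 43 (4.42% of all). These were the Dnmt3b intron interval 8633 bp before an annotated start inside the gene and the Tet1 intron interval at 13619 bp (edgeR adjusted p = 1 for both). For the change from 0 min in the 2 control lines 0 of 43 were called where 0% of all were, and 3 of 43 had an unadjusted p under 0.05 (5.26% of all). The same Uhrf1 exon 9 and Tet2 intron intervals had the smallest p there, at 1.69 ± 0.51 and -0.85 ± 0.27 (edgeR adjusted p = 0.919 for both). The time contrasts share the control libraries and the 0 min libraries, so the opposite signs at these intervals rest on the same values. DESeq2 also called 0 members for each of these 3. In simulated counts the mean Firre response recovered 46.3% of 2-fold and 7.5% of 1.5-fold changes, so changes of that size at the members could have been missed.

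**Figure D4:**
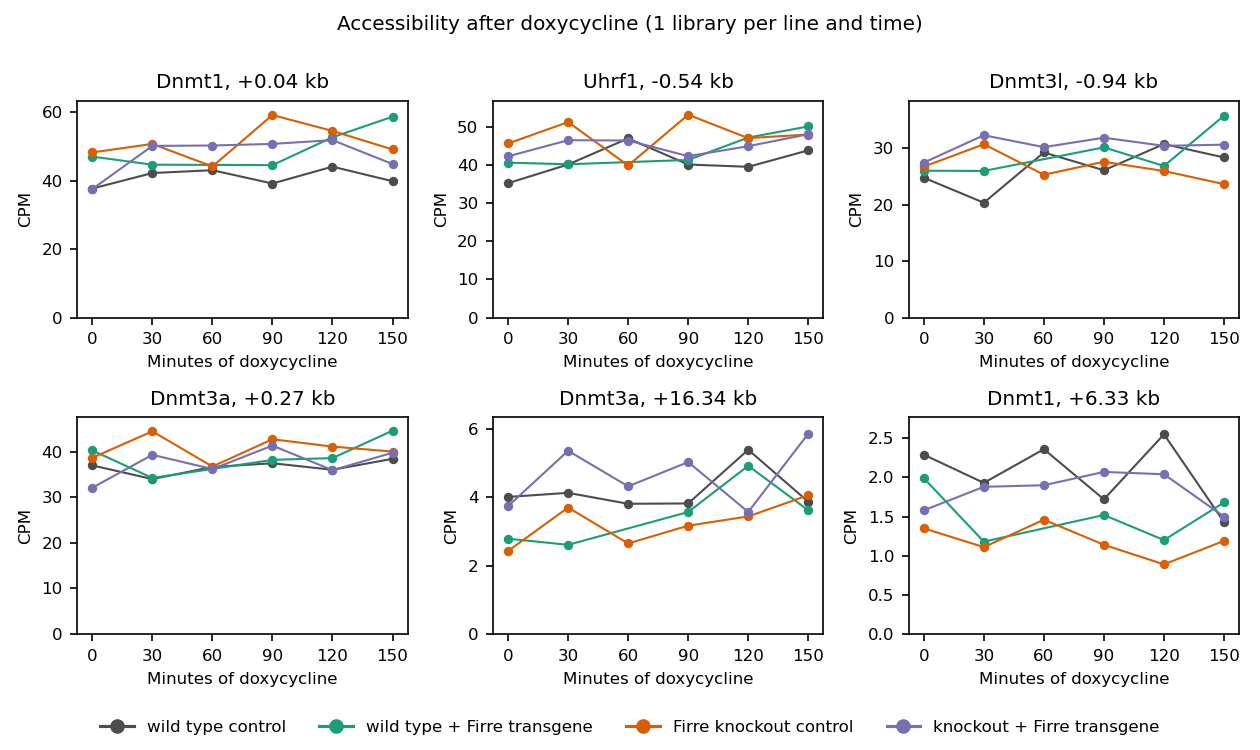
Accessibility (y axis, CPM, from 0) against minutes of doxycycline (x axis) for 6 member intervals, with 1 library per line and time and no wild type Firre library at 60 min. At the Dnmt3a interval 16340 bp from the start the knockout Firre line lies above the knockout control at 6 of 6 times, and at the main Dnmt1 start the wild type Firre line lies above its control at 5 of 5.

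Other genes of the pathway were given by their promoter intervals. The list holds 38 genes that recruit, read, oppose or repair DNA methylation or supply its methyl donor, and 27 had a tested promoter interval, 34 intervals in all. Between the control lines 6 of 34 were higher and 1 lower in the knockout, against 16.4% and 1.39% of all promoter intervals. The largest rises were at Kdm1b, a histone demethylase needed for methylation of imprinted genes in oocytes, from 56.9 ± 3.79 to 81.0 ± 13.6 CPM (0.50 ± 0.09; edgeR adjusted p = 2.71e-05), and Mbd3, a subunit of the NuRD complex, from 74.2 ± 3.60 to 99.0 ± 12.3 CPM (0.41 ± 0.09; edgeR adjusted p = 0.00055; SD, n = 6 each). The interval that fell was annotated as a promoter of Usp7, a deubiquitinase that binds Dnmt1 and Uhrf1, from 1.91 ± 0.630 to 1.005 ± 0.455 CPM (-0.92 ± 0.28; edgeR adjusted p = 0.0261), low levels next to the other 2. The strongest Usp7 promoter interval, at 5.92 ± 1.20 and 6.16 ± 0.353 CPM, was not called (0.06 ± 0.14, edgeR adjusted p = 0.849). A further Usp7 interval, at 1.95 ± 0.552 and 1.33 ± 0.292 CPM, was also not called (-0.56 ± 0.25, edgeR adjusted p = 0.169). The median log2 difference of the 34 was 0.12. Of the same 34 intervals 0 were called in each of the other 6 comparisons. These 34 intervals were not looked at under the other settings, the promoter share covariate included. With that covariate the calls between the control lines fell from 10324 to 373 over all intervals.

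For each gene with a tested promoter interval, the promoter intervals of other genes with the most similar log2 CPM over the 23 libraries are given as a description. For the main Dnmt1 start they were Gm48996 and Gm38004 (r = 0.95 and 0.94), and for the first Dnmt3a starts Gm4842 and Lonp1 (r = 0.85 for both). For Tet3 they were Pmf1 (0.87) and Gm45828 (0.85), and for Dnmt3l Gm15348 (0.81) and N4bp2 (0.80). For Dnmt3b the interval used was the promoter interval named for it, at an annotated start inside the gene, and not the Dnmt3b start. Its nearest were Cbr4 (0.75) and Lyve1 (0.72). The promoter named for Uhrf1 with the highest mean count is that of Kdm4b, and its nearest were Pdhx and Cdkn2d (r = 0.97 for both). These libraries share lines and differ in promoter share, which itself ran with log2 CPM at r = 0.87 for the Dnmt1 start, 0.95 for the Kdm4b promoter, 0.73 for Dnmt3a, 0.60 for Tet3, 0.57 for Dnmt3l and -0.40 for the Dnmt3b interval inside the gene.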

How the data were processed

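ATAC-seq was read from 23 libraries of 4 mouse embryonic stem cell lines at 6 doxycycline times. The authors deposited raw counts, whole numbers per consensus interval and library without normalization, and an annotation of each interval with its nearest start. MACS2 2.2.7.1, featureCounts and mm10 are named per the submitters' processing notes. For the aligner, duplicate removal, transposase shift and annotation version, what was done is not given in the sources used here. Median total count was 7664147 per library.

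Counts were tested with edgeR 4.0.16 (glmQLFit, robust; TMM; filterByExpr with a minimum of 10 counts and lines as groups) in R 4.3.3 under limma 3.58.1. The line fit held line and time (14 residual degrees of freedom), and the time fit added transgene by time (9). Standard errors came from the F statistic. P-values were adjusted over all 129515 tested intervals, with a threshold of 0.05. Time, as a factor, blocked the 4 lines. CPM is on TMM library sizes.

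Named in full were promoter intervals, the strongest distal interval of each gene, called intervals and, where none was called, the 2 smallest p. The members and lists were chosen with earlier results of these data known. RefSeq start windows (GRCm38.p6) matched 8 of 8 genes. The line fit, tested on simulated counts over 129515 intervals, recovered 97% of 2-fold and 76.1% of 1.5-fold changes for knockout against wild type. For the wild type Firre pair it recovered 95.5% and 56.7%, and for the knockout Firre pair 94% and 67.2%. These changes were placed only in intervals above a minimum mean count, which some tested members do not reach. Alternatives were DESeq2 1.42.0, RLE factors, total counts, loess offsets, other filters (none, 30 counts), no time term, promoter share as covariate, omission of the knockout control libraries of 30 and 90 min, and omission of each library; adding the 3 intervals over member starts was chosen after seeing the data.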

Additional observations from a re-analysis of the deposited data

Results flagged for a closer look

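In 5 of the 104 groups of libraries tested over the named intervals, 1 library stood apart from the rest of its line by Dixon's criterion at 95%, and chance alone flags about 5% of groups. At the Tet3 start the knockout Firre library of 0 min was the lowest of its line at 17.1 CPM, with the next at 22.03. At the upstream Dnmt1 start the knockout control library of 150 min was the highest at 6.63 CPM, with the next at 4.64. At the downstream Dnmt3l start the knockout control library of 90 min was the highest at 18.4 CPM, with the next at 16.6. At the Dnmt3a interval 16340 bp from the start the wild type control library of 120 min was the highest at 5.39 CPM, with the next at 4.13. At the Tet2 start the wild type Firre library of 150 min was the highest at 51.9 CPM, with the next at 39.4.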

How the results depend on the processing

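Between the control lines 4 members were called. The count, not always of the same intervals, was 2 with loess offsets (the Dnmt3a interval at 18649 bp and the Tet1 start) and 0 with promoter share as covariate. It was 1 when the knockout controls of 30 and 90 min were left out and 2 by DESeq2. Calls over all intervals moved as well, from 10324 as reported to 6266, 373, 2135 and 6074 in that order. Leaving out 1 library gave 1 to 10, with 1 without the knockout control library of 90 min, 10 without that of 150 min, and 2 without that of 120 min or without the wild type control library of 30, 90 or 120 min; RLE factors, total counts, other filters and no time term gave 3 to 5. With the 3 intervals over member starts the count was 6. For the knockout Firre line against its control the count of 0 became 1 with the covariate (2483 of 129515 over all intervals), and 0 to 1 with 1 library left out. The other counts of called members stayed at 0 under every alternative run. No paired analysis was possible because the labels give no replicate numbers; time already blocks the lines. Log2 differences between the control lines that changed sign, not called under the setting that changed it, were these. With loess offsets: the Uhrf1 start -0.056, first Dnmt3a starts -0.097, Tet3 -0.016, Dnmt3b start -0.092, upstream Dnmt1 start 0.00085, downstream Dnmt3l start -0.11. With the covariate: Tet2 start -0.043, Dnmt3a -0.039, Tet3 -0.055, Dnmt3b -0.048, upstream Dnmt1 0.25, downstream Dnmt3l -0.12. On total counts: Dnmt3b -0.013, downstream Dnmt3l -0.090. Without a filter: main Dnmt3l start 0.0018, Tet1 0.0084. By DESeq2: main Dnmt3l 0.0061, Tet1 0.0029. With RLE factors: Tet1 0.00095. For downstream Dnmt3l also -0.045 with a minimum of 30 counts and -0.046 with knockout controls of 30 and 90 min left out. With 1 library left out the ranges were -0.24 to 0.12 (upstream Dnmt1), -0.084 to 0.054 (main Dnmt3l), -0.029 to 0.055 (Tet1) and -0.041 to 0.055 (downstream Dnmt3l). Depth limits intervals near 1 CPM most.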
